A study of Mus musculus with 39 samples.

Results

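Lung gene expression was compared between 5 female mice of the Crlj:CD1(ICR) stock fed 5000 ppm permethrin for 14 days and 5 control mice of the same strain, sex and feeding time whose diet held 0 ppm. These 10 animals are all those whose titles name that dose or the control at 14 days, out of 39 animals in 8 groups. The other groups were fed permethrin at 10000 ppm, isoniazid at 2500 ppm (a drug that the labels give as positive control for tumours), or permethrin at 5000 ppm for 7 days with a 7-day control of its own. The 14-day animals were 12 weeks old and the 7-day animals 11 weeks. Crlj:CD1(ICR) is an outbred stock, so animals of a group are not genetically identical. All 10 ate powdered diet without restriction. The labels give the whole lung as tissue, and each animal had its own array, so that p-values measure the spread between animals. In the tests of single genes this spread was taken from all 39 arrays in 8 groups, not from these 10 animals alone.

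Permethrin is a pyrethroid insecticide, an ester that acts on voltage-gated sodium channels of nerve cells and that carboxylesterases of mammals hydrolyse. The lung meets such compounds through the blood as well as by inhalation, and the club cells of its small airways are rich in detoxifying enzymes. Cells that meet electrophiles or oxidants stabilise the transcription factor NRF2 (gene Nfe2l2), which KEAP1 otherwise sends to degradation, and NRF2 binds antioxidant response elements near genes for glutathione transferases, quinone reductases, thioredoxin reductase and NADPH supply. The nuclear receptors CAR and PXR and the aryl hydrocarbon receptor are other sensors of foreign compounds and share some of those target genes.

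The values are microarray signals after quantile normalization. In all, 13020 genes were bright enough to be tested. The threshold was an adjusted p of 0.05 from limma's moderated test, adjusted by the Benjamini-Hochberg method over all 13020 genes.

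After 14 days at 5000 ppm, 16 genes were higher with permethrin, which is 0.123% of those tested, and 1 was lower, which is 0.00768%. Of the 16, 13 belong to 12 lists of detoxification, antioxidant, NADPH-supply and transporter genes, which hold 205 tested genes with a median log2 fold change of 0.05. The lists were chosen with earlier results of these data known. These 13 are the glutathione transferases Gsta2 and Gstm1, the thiol-system enzymes Txnrd1, Srxn1 and Gpx2, the carbonyl and quinone reductases Nqo1, Cbr1 and Cbr3, the aldehyde dehydrogenases Aldh3a1 and Aldh1a1, the carboxylesterase Ces1g, the epoxide hydrolase Ephx1 and the NADPH-forming enzyme Pgd. The remaining 3 were the peroxisomal oxidase Acox2, the secreted protein gene Fetub and the neuropeptide gene Pth2. The gene that fell was Gm19990, annotated as a long non-coding RNA. Folds of the 16 ran from 1.20 to 4.25. For each of the 16 genes the 5 treated animals were all above the mean of the controls, and for Gm19990 all were below it. Treated and control animals did not overlap at all for 13 of the 17. Among all genes tested, 0.668% did not overlap with permethrin higher and 0.3% with permethrin lower. An unadjusted p under 0.05 was reached by 406 genes with permethrin higher (3.12%) and 274 with permethrin lower (2.1%).

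**Figure D1:**
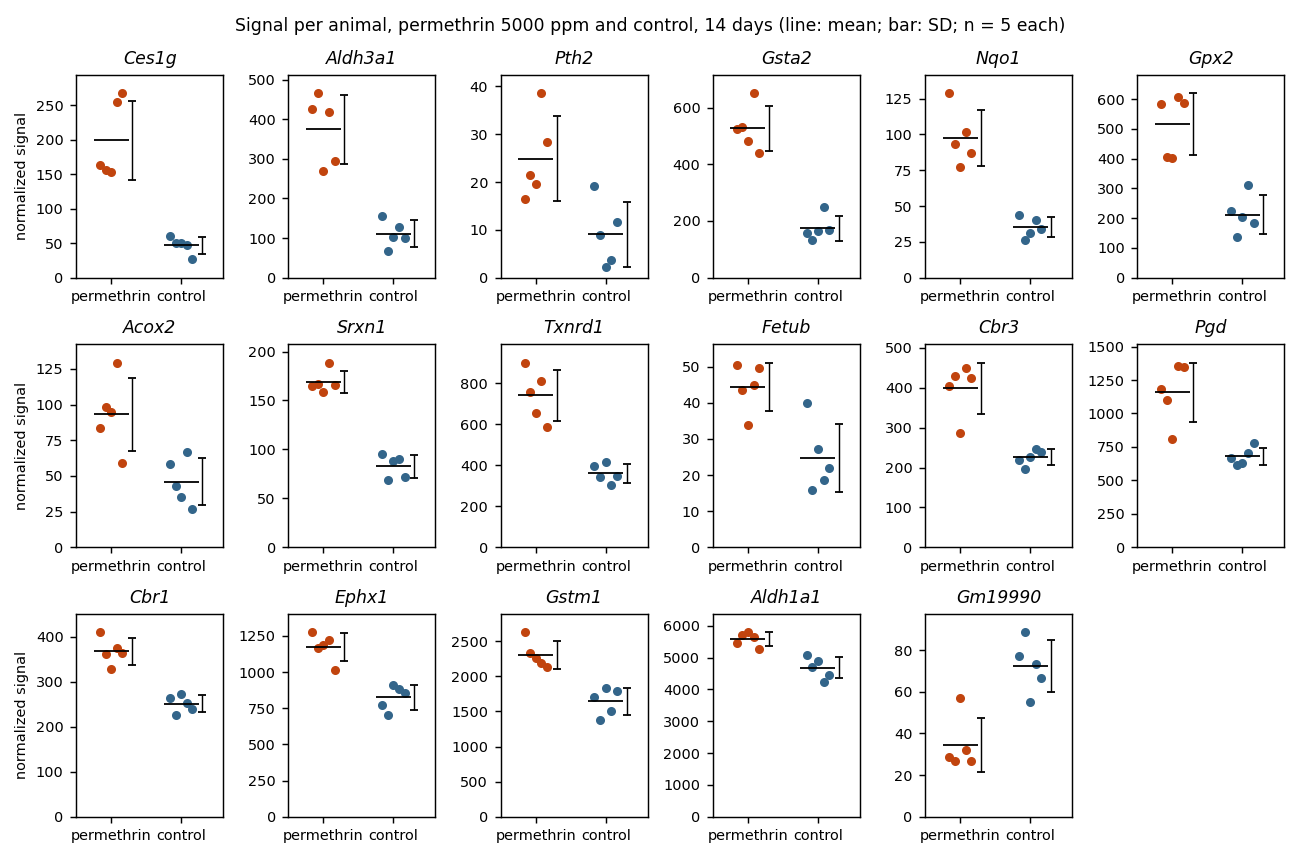
Normalized signal (linear scale from 0, array units) of the 17 genes past the threshold, 1 panel per gene, with 1 point per animal, the mean as a line and the SD as a bar (n = 5 permethrin 5000 ppm, n = 5 control, 14 days). In 13 panels the lowest permethrin animal lies above the highest control. Fetub, Pth2, Acox2 and Gm19990 overlap.

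Libraries stood apart in other ways than by treatment. In control replicates 2, 3 and 5 the genes of large-airway secretory cells were nearly dark, whereas control replicates 1 and 4 were like the treated animals. The secretoglobin Scgb3a1 had 1369, 4189, 3213, 2623 and 2149 in permethrin-fed animals, against 2812, 49.96, 83.3, 2149 and 55.9 in controls. The airway surface protein Bpifa1 had 1515, 5863, 5560.5, 472 and 2275 with permethrin and 2569, 13.6, 13.9, 2304 and 8.15 in controls. Both genes were chosen after their values were seen. Averaged over 5 such genes (Scgb3a1, Muc5b, Bpifa1, Bpifb1 and Reg3g, likewise chosen afterwards), mean log2 signal was 7.97, 9.58, 9.41, 8.45 and 8.22 with permethrin and 8.76, 2.60, 4.08, 8.35 and 3.19 in controls.

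Fat genes followed the same split, and heart genes did so in part. Mean log2 signal of cardiac markers was lowest in control replicates 2, 3 and 5. Control replicate 4, at 6.78, was also below every treated animal (6.87 to 7.89). Single cardiac genes differed. Myh6 had 523 in control replicate 4, below 667 and 764 in control replicates 3 and 5. Myom2 was likewise lower there, whereas Smpx and Tnni3 were higher in control replicate 4 (Tnni3 257 against 185 and 176). The 33 cardiac muscle markers averaged 7.25 ± 0.42 with permethrin and 6.35 ± 0.65 in controls (mean log2 signal, SD, n = 5 each), with an exact two-sided permutation p of 0.0317 (0.349 adjusted over 22 such scores). The 13 fat markers averaged 6.29 ± 0.36 with permethrin and 5.27 ± 0.84 in controls (SD, n = 5 each, exact permutation p = 0.0635, adjusted 0.466). Summed signal of all measured cardiac markers was 8233 to 16352 with permethrin and 3123 to 10321 in controls. The fat sums were 1302 to 3076 with permethrin and 705 to 1862 in controls. Adipoq, the fat hormone adiponectin, had 111, 366, 285, 157 and 52.5 with permethrin and 150.2, 2.26, 10.1, 94.4 and 7.57 in controls, so it too was low in control replicates 2, 3 and 5. All 33 cardiac markers and all 13 fat markers had positive log2 fold changes, with medians of 0.93 and 0.69 (0.62 and 0.44 without control replicate 2), beside a median of -0.0048 over all genes. None of either list passed the threshold in limma, and 23 cardiac and 3 fat markers had an unadjusted p under 0.05. In such bulk samples fewer cells of a type and less RNA per cell cannot be told apart. The labels do not say whether dissection differed between animals, and this was not tested.

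RNA integrity also differed between animals, with high and low values in both groups. The log2 ratio of Gapdh probe sets at the 3' and 5' ends, higher where RNA is more degraded, was 0.57, 0.07, -0.08, 1.45 and 1.34 with permethrin and 0.25, 0.14, -0.01, 1.80 and 0.79 in controls (exact permutation p = 0.889). In both groups replicates 4 and 5 had the highest ratios, for Gapdh and for Actb alike. Correlations between the 10 arrays ran from 0.945 to 0.979. Defining lung markers were bright in all 10: Sftpc, the surfactant protein of alveolar type 2 cells, had 7213, 7633, 7136, 7309 and 7897 with permethrin and 6688, 6301, 6912, 6912 and 6852 in controls. Scgb1a1, the main club cell product, reached the highest value that normalization allows in all 5 treated and 2 control animals, where a difference cannot be read.

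**Figure D2:**
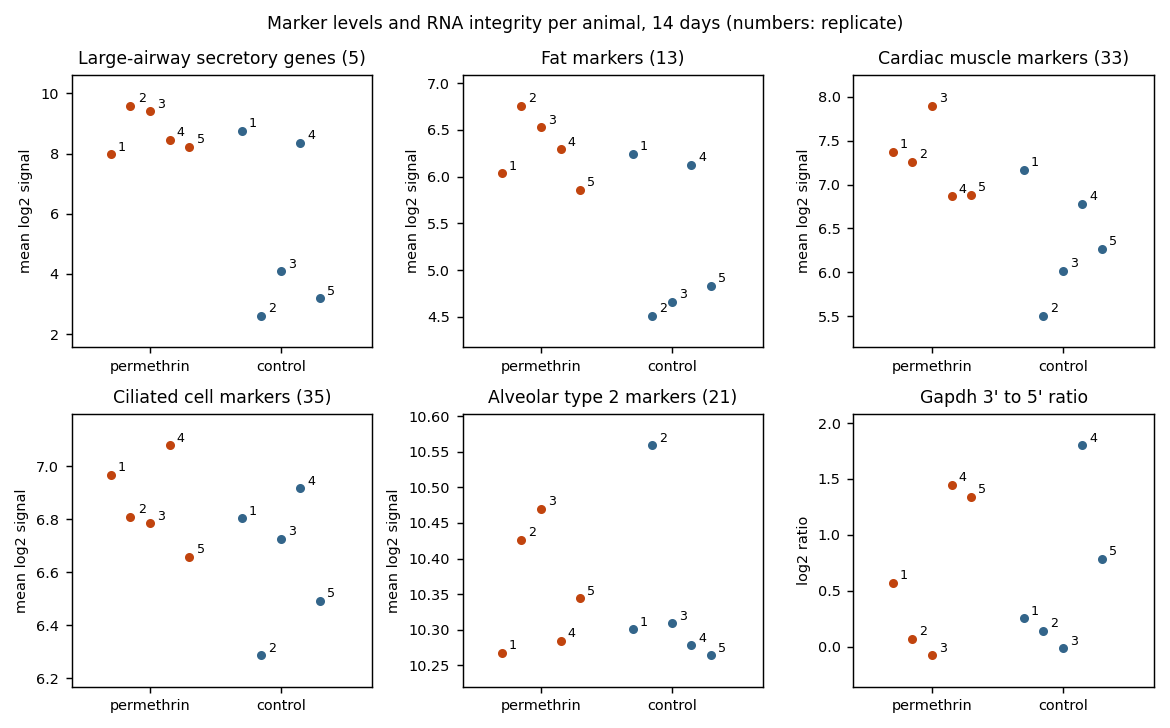
Mean log2 signal of marker genes per animal, and the log2 Gapdh 3' to 5' ratio, for permethrin 5000 ppm (left in each panel) and control (right) at 14 days. Points carry the replicate number, and panel titles give the number of genes. Control replicates 2, 3 and 5 are low for large-airway, fat and cardiac genes, with large-airway means of 2.60, 4.08 and 3.19, where permethrin animals are between 7.97 and 9.58.

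Glutathione transferases join glutathione to electrophiles. Gsta2, an alpha-class member, had signals of 525, 532, 483, 651 and 439.9 in permethrin-fed lungs, against 159, 132, 163, 249.9 and 167 in control lungs. The dimmest treated animal was brighter than the brightest control. Gsta2 rose 3.07-fold (log2 1.62, SE 0.21, adjusted p = 3.3e-05). A probe set of its near copy Gsta1 alone was not analysed here, and probes for this family may read more than 1 member. Gstm1, a mu-class member, had 2631, 2329, 2268, 2185 and 2126 with permethrin and 1705, 1381, 1830.0, 1513 and 1798 in controls. It rose 1.41-fold (log2 0.49, SE 0.09, adjusted p = 0.0136), and its 4 probe sets gave log2 fold changes from 0.48 to 0.63.

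Of 19 glutathione transferases tested, those 2 passed, and 17 had positive values (median log2 fold change 0.16). Gsta4, which conjugates lipid peroxidation products, had 994, 969, 963, 979 and 860.3 with permethrin and 649, 561, 729.5, 863 and 542 in controls, where control replicate 4 reached the lowest treated animal (log2 0.53, SE 0.14, adjusted p = 0.223). The alpha-class Gsta3 (log2 0.58, SE 0.22) and the membrane-bound Mgst1 (log2 0.16, SE 0.05) had adjusted p-values of 0.86 and 0.62. Gstp1, the pi-class enzyme, had a log2 fold change of 0.14 (SE 0.13). Of 14 tested genes of glutathione synthesis and recycling, 0 passed in limma when each gene was read from its brightest probe set, and one of them, Gclc, passed by its second probe set. Gclc, the catalytic subunit of the enzyme that starts glutathione synthesis, had 879, 859.5, 725, 1885 and 1756 with permethrin and 745, 634, 654, 753 and 501 in controls (log2 0.79, SE 0.26, adjusted p = 0.629). Its high values were those of permethrin replicates 4 and 5, which had Gapdh 3' to 5' ratios of 1.45 and 1.34. Control replicates 4 and 5, with ratios of 1.80 and 0.79, had Gclc signals of 753 and 501. Without the arrays of high Gapdh ratio the log2 fold change of Gclc was 0.28, and with the ratio as a covariate it was 0.78 (limma's adjusted p = 0.933 and 0.569). The second Gclc probe set gave 0.71 with a smaller SE of 0.14, and it passed in limma when every probe set was tested (adjusted p = 0.0416). For its modifier subunit Gclm the log2 fold change was 0.38 (SE 0.16, adjusted p = 0.919), and for glutathione synthetase Gss it was 0.50 (SE 0.16, adjusted p = 0.563).

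A few enzymes that keep thiols reduced or remove peroxides also rose. Txnrd1, the cytosolic thioredoxin reductase that passes electrons from NADPH to thioredoxin, had 901, 756, 655, 808 and 585 with permethrin and 394, 342, 417, 302 and 349 in controls. It rose 2.04-fold (log2 1.03, SE 0.14, adjusted p = 3.3e-05), and its 2 dim probe sets gave 0.97 and 0.71. Srxn1, sulfiredoxin, which repairs over-oxidised peroxiredoxins, had 164, 167, 159, 189 and 166 with permethrin and 95.1, 68.8, 88, 90.0 and 71.9 in controls. The 5 treated animals of Srxn1 lay within 159 to 189, well clear of the highest control at 95.1. It rose 2.06-fold (log2 1.04, SE 0.14, adjusted p = 3.3e-05). Of its 3 dimmer probe sets, those of log2 1.03 and 0.58 had the same sign, and the dimmest gave -0.70 (SE 0.55). Gpx2, a glutathione peroxidase of epithelia, had 583, 405, 402, 607 and 587 with permethrin and 223, 136, 205, 313 and 183 in controls. Permethrin replicates 2 and 3 were the lowest of the treated and control replicate 4 the highest of the controls, with no overlap. Gpx2 rose 2.49-fold (log2 1.31, SE 0.23, adjusted p = 0.00361). Of 13 genes tested for thioredoxin, sulfiredoxin and peroxiredoxins, 2 passed (median -0.02). Of 11 glutathione peroxidases, superoxide dismutases and catalase, Gpx2 alone passed (median -0.02).

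Of 23 tested reductases that act on quinones and carbonyls, 3 passed (median 0.17). Nqo1, the quinone reductase often read as a sign of NRF2 activity, had 129, 93, 77.5, 102 and 87.4 with permethrin and 43.6, 26.5, 31.4, 40.5 and 34.2 in controls. All treated animals were above all controls, and Nqo1 rose 2.77-fold (log2 1.47, SE 0.23, adjusted p = 0.000561). Cbr3, a carbonyl reductase, had 404, 429.9, 285, 448 and 423 with permethrin and 219.7, 197, 227, 247 and 239.9 in controls. Permethrin replicate 3 was low among the treated, yet above every control. Cbr3 rose 1.74-fold (log2 0.80, SE 0.17, adjusted p = 0.0286). Its relative Cbr1 had 409.9, 361, 328, 374 and 363 with permethrin and 263, 226, 272, 253 and 239 in controls, without overlap, and rose 1.46-fold (log2 0.55, SE 0.11, adjusted p = 0.0175). Blvrb, a biliverdin reductase that also reduces flavins, had 213, 223, 181, 189 and 126 with permethrin and 111, 97.7, 113, 113 and 92.8 in controls. Those groups did not overlap, but Blvrb did not pass (log2 0.80, SE 0.24, adjusted p = 0.485). The aldo-keto reductase Akr1b8 had a log2 fold change of 0.45 and an unadjusted p of 0.0046.

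Aldehyde dehydrogenases oxidise reactive aldehydes. Aldh3a1, which handles aromatic and lipid-derived aldehydes, had 427, 466, 269, 417 and 295 with permethrin and 156, 66.2, 103, 128 and 100.4 in controls. Permethrin replicates 3 and 5 were lower than the other treated animals, and control replicate 1 was the highest control. Aldh3a1 rose 3.44-fold (log2 1.78, SE 0.29, adjusted p = 0.000709). Aldh1a1, a retinaldehyde dehydrogenase abundant in club cells, had 5449, 5713, 5799, 5649.5 and 5271 with permethrin and 5079, 4701, 4880.3, 4242 and 4461 in controls, and rose 1.20-fold (log2 0.26, SE 0.05, adjusted p = 0.0286). Its log2 fold change was 0.57 with arrays centred on their median (limma's adjusted p = 0.97), so its size and its call depended on the scaling. Of 18 aldehyde dehydrogenases tested, those 2 passed (median 0.09).

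Carboxylesterases include the enzymes that split the ester bond of pyrethroids. Ces1g, whose product is a carboxylesterase of liver and lung, had 164, 156, 153, 255 and 267 with permethrin and 60.4, 50.4, 49.9, 47.1 and 26.8 in controls. Treated replicates 4 and 5 were higher than replicates 1 to 3, and control replicate 5 was the lowest control. Ces1g had the largest fold of all genes called, 4.25 (log2 2.09, SE 0.28, adjusted p = 3.3e-05). Its relative Ces1f, a club cell marker, had 223, 181, 195, 291 and 152 with permethrin and 98.8, 70.3, 114, 188 and 73.8 in controls, where control replicate 4 lay within the treated range (log2 1.0, SE 0.24, adjusted p = 0.113). Ces1e had 55.3, 54.3, 61.6, 68.5 and 54.9 with permethrin and 45.9, 40.2, 40.0, 52.7 and 29.3 in controls, without overlap (log2 0.52, SE 0.17, adjusted p = 0.62). These Ces1 genes are close copies in a cluster, and their probes may share transcripts. Of 17 ester hydrolases tested, Ces1g alone passed (median 0.20), and 6 had an unadjusted p under 0.05 with permethrin higher and 1 with permethrin lower, Ces2b at log2 -0.56.

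Ephx1, the microsomal epoxide hydrolase, had 1277, 1166, 1189, 1225 and 1016 with permethrin and 771, 706, 911, 883 and 854 in controls. The groups did not overlap, and Ephx1 rose 1.43-fold (log2 0.51, SE 0.11, adjusted p = 0.0286). It alone passed among 11 tested genes of conjugation and epoxide hydrolysis (median -0.01). Pgd, the 6-phosphogluconate dehydrogenase that forms NADPH in the pentose phosphate pathway, had 1181, 1098, 810.0, 1352 and 1348 with permethrin and 670.5, 615, 633, 704 and 777 in controls. Permethrin replicate 3 came nearest to the controls, and Pgd rose 1.68-fold (log2 0.75, SE 0.15, adjusted p = 0.0175). Its 4 probe sets gave 0.46 to 1.04. Other enzymes of that pathway, Taldo1 (log2 0.27, SE 0.13) and Tkt (0.26, SE 0.12), and the malic enzyme Me1 (0.65, SE 0.31) had an adjusted p between 0.923 and 0.929. A second bright Tkt probe set gave 0.52 (SE 0.15), with an adjusted p of 0.624 over all probe sets. G6pdx, the first enzyme of the pathway, was not analysed here. Of 14 genes of NADPH supply tested, Pgd was the single call (median 0.02).

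**Figure D3:**
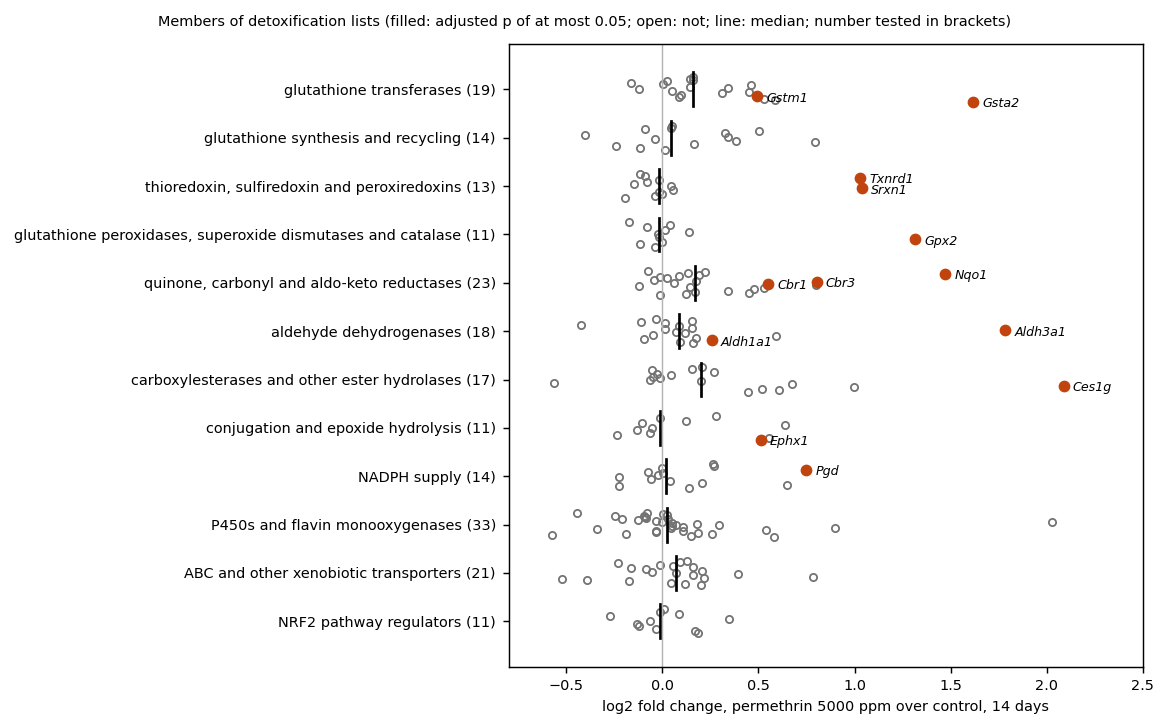
Log2 fold change (permethrin 5000 ppm over control, 14 days) of each tested gene in 12 lists of detoxifying enzymes and their regulators, with the number tested in brackets. Filled points passed the threshold and carry names, open points did not, and lines mark list medians. The medians lie between -0.02 and 0.20, and each named gene lies to the right of the median of its list. Some open points lie farther right than a named gene, such as one at 0.64 beside Ephx1 at 0.51.

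The sensors themselves and the classical P450 targets gave no call. Nfe2l2 had 1193, 1139.8, 1270.2, 1018 and 1027 with permethrin and 1185, 1137, 1247, 1003 and 1117 in controls (log2 -0.01, SE 0.08), and Keap1 had a log2 fold change of -0.13 (SE 0.14). Neither group stood apart from the other for these transcripts. Of 11 regulators of the NRF2 pathway 0 passed in limma, with Mafk (log2 -0.27, SE 0.11) and Bach1 (0.18, SE 0.08) at unadjusted p-values of 0.023 and 0.032. Hmox1, haem oxygenase and another NRF2 target, had 121, 122, 121, 116 and 108 with permethrin and 109.7, 86.8, 97.2, 82.3 and 90.1 in controls, with permethrin replicate 5 just below control replicate 1 (log2 0.34, SE 0.16, adjusted p = 0.929).

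Cyp2b10, the P450 that CAR induces in liver, had 1839.6, 2011, 1987, 2326 and 1883 with permethrin and 1792, 2059, 2054, 2051 and 2329 in controls. Those ranges overlapped almost wholly (log2 -0.03, SE 0.09). Cyp1a1, the main aryl hydrocarbon receptor target, had 16.9, 42.9, 32, 26.7 and 17.3 with permethrin and 43.1, 55.2, 31.6, 28.9 and 36 in controls (log2 -0.57, SE 0.37, adjusted p = 0.977), and the receptor gene Ahr had -0.12 (SE 0.15). Nr1i3 and Nr1i2, the genes of CAR and PXR, were below the filter on dim genes and were not tested. In limma 0 of 33 P450, flavin monooxygenase and other oxidase genes passed (median 0.03). The nearest was the monoamine oxidase Maoa, with 259.9, 158, 209, 247 and 219.5 in permethrin-fed animals and 285, 255, 287, 317 and 326 in controls (log2 -0.44, SE 0.11, adjusted p = 0.0981). Among 18 CAR and PXR targets 5 passed, namely Gsta2, Ces1g, Gstm1, Ephx1 and Aldh1a1 (median 0.22). Among 8 aryl hydrocarbon receptor targets 3 passed, namely Gsta2, Nqo1 and Aldh3a1 (median 0.12). Each of these is also counted above among enzymes of its own kind.

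Efflux transporters gave 0 calls among 21 tested in limma, 2 of them at an unadjusted p under 0.05. Abcb6, a porphyrin transporter, had 122, 88.8, 96.1, 141 and 177 with permethrin and 68.7, 64.6, 73.8, 78.6 and 67.2 in controls. The groups were separate, and Abcb6 fell just short of the threshold (log2 0.78, SE 0.18, adjusted p = 0.0576). Abcc3, which exports conjugates, had 179, 174, 164, 262 and 225 with permethrin and 155, 127, 157, 159.8 and 155 in controls (log2 0.39, SE 0.11, adjusted p = 0.373). Voltage-gated sodium channels, the target of permethrin in nerve, were measured for few members: 5 of 14 were bright enough to test, and 0 passed (log2 -0.24 to 0.22, none at an unadjusted p under 0.05).

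Acox2, a peroxisomal oxidase of branched-chain fatty acids and bile acid intermediates, had 83.9, 98.6, 95.1, 129.5 and 58.9 with permethrin and 58.4, 42.8, 35.2, 66.9 and 26.7 in controls. Permethrin replicate 5 lay within the range of the controls, and Acox2 had the weakest call of the 17 (2.07-fold, log2 1.05, SE 0.23, adjusted p = 0.0492). Of 24 peroxisomal and PPAR alpha genes tested it alone passed. The next genes by p, just outside the threshold, were the nucleotidase Entpd5 (log2 0.87, adjusted p = 0.0525), Abcb6, and Ikbkg (log2 0.41, adjusted p = 0.0585). Fetub, fetuin-B, a plasma protein made mainly by liver, had 50.5, 43.6, 33.9, 44.8 and 49.7 with permethrin and 39.9, 15.9, 27.1, 18.6 and 21.9 in controls. Control replicate 1 overlapped the treated animals, and Fetub rose 1.88-fold (log2 0.91, SE 0.18, adjusted p = 0.0175). The 25 liver markers tested averaged 5.48 ± 0.45 with permethrin and 5.61 ± 0.35 in controls (mean log2 signal, SD, n = 5 each, exact permutation p = 0.619), and the mean was the lower one with permethrin. Of 22 acute phase and inflammatory genes tested Fetub alone passed. Orm1, an acute-phase protein of liver, had 40.6, 60.4, 43.3, 15 and 31.4 with permethrin and 12.2, 5.62, 12.5, 19 and 7.24 in controls (log2 1.74, SE 0.45, adjusted p = 0.218).

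Pth2, the neuropeptide TIP39, was dim, with 16.4, 21.5, 19.6, 38.6 and 28.4 in permethrin-fed animals and 19.1, 8.87, 2.23, 3.63 and 11.6 in controls. Control replicate 1 lay within the treated range (3.44-fold, log2 1.78, SE 0.36, adjusted p = 0.0228). The signal of 3 controls was below the mean signal of 10.8 that the filter asks for. Gm19990 had 28.9, 27, 57.3, 32 and 26.7 with permethrin and 77.5, 88.7, 55.3, 73.3 and 66.4 in controls. Permethrin replicate 3 was above control replicate 3, and the other 4 treated animals were below every control (log2 -1.12, SE 0.24, adjusted p = 0.0286).

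Growth and stress programmes gave no calls. Of 38 cell cycle genes 0 passed in limma and 0 had an unadjusted p under 0.05 (median 0.01). Mki67, a marker of dividing cells, had 82.9, 93.3, 51.9, 92.2 and 49.2 with permethrin and 49.2, 67.5, 71.1, 42.2 and 44.3 in controls (log2 0.41, SE 0.26, adjusted p = 0.97), and Top2a had -0.10 (SE 0.22). All 15 heat shock genes tested had positive values (median 0.24), with 0 past the threshold in limma and 2 at an unadjusted p under 0.05, Hspe1 (log2 0.47) and Hspb8 (log2 0.37). Their median was 0.03 without control replicate 4 and 0.36 without permethrin replicate 5, and -0.03 at 10000 ppm. Of 24 genes of the unfolded protein and amino acid response, 0 passed and 0 had an unadjusted p under 0.05. Of 20 cholesterol synthesis genes, 18 had negative values (median -0.12), 0 passed in limma, and 5 had an unadjusted p under 0.05. Hmgcs1, an early enzyme of that pathway, had 746, 813, 839, 750.4 and 635 with permethrin and 1200.0, 1108, 871, 839.9 and 748 in controls (log2 -0.32, SE 0.11, adjusted p = 0.809).

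Cell type markers other than those of large airway, heart and fat differed by list. The 21 alveolar type 2 markers had a median log2 fold change of 0.01, the 18 alveolar type 1 markers -0.02 and the 19 alveolar macrophage markers -0.08. Of 21 endothelial markers 4 were positive (median -0.10), and of 13 mesothelial markers 2 were (median -0.12), with 0 past the threshold in either list. Of 35 ciliated cell markers 32 were positive (median 0.23), with 0 past the threshold and 3 at an unadjusted p under 0.05. The score of 30 club cell markers was 9.80 ± 0.14 with permethrin and 8.95 ± 0.64 in controls (mean log2 signal, SD, n = 5 each). Its exact permutation p of 0.00794 was the smallest that 5 animals against 5 can give, and became 0.175 after adjustment over 22 scores. The large-airway genes given above belong to this list, and so do Ces1g and Aldh1a1, which passed in limma. The score thus rests in part on genes already picked for their difference. The median log2 fold change of the 30 markers was 0.25. Cyp2f2, a P450 of club cells, had 6269.5, 6430.2, 6688, 5820.0 and 6138 with permethrin and 5482, 5449, 6301, 5863 and 5973 in controls (log2 0.11, SE 0.05, adjusted p = 0.929). Of the 22 scores, 0 passed after adjustment, and 2 had an unadjusted p under 0.05.

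Since 3 controls were low in large-airway, cardiac and fat genes, the model was also fitted with these 3 scores as covariates, an alternative chosen after seeing the data. Gsta2 (log2 1.48), Txnrd1 (1.01), Srxn1 (0.95) and Ces1g (2.26) then passed, with adjusted p-values of 0.00174, 0.000882, 0.0027 and 0.000882. Nqo1 (log2 1.24, adjusted p = 0.0541), Aldh3a1 (1.19, adjusted p = 0.0943) and Gpx2 (1.07, adjusted p = 0.159) no longer did, and the count was 4 in all. With cardiac and liver scores as covariates 5 genes passed. Without the arrays of high Gapdh ratio, which leaves fewer animals, 10 passed, 9 of them among the 17. The count also rested on single animals: it was 8 without permethrin replicate 1, permethrin replicate 4 or control replicate 2, and 10 without control replicate 5.

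Animals differed in how strongly the 16 higher genes moved. Averaged over them, the log2 change from the control mean was 1.15, 1.08, 0.88, 1.30 and 1.05 in permethrin replicates 1 to 5, against 0.28, -0.21, -0.07, 0.06 and -0.06 in control replicates 1 to 5. Permethrin replicate 3 was the lowest treated animal for 9 of the 16 genes and replicate 4 the highest for 7. Control replicate 1 was the highest control for 7 and control replicate 2 the lowest for 11. These means come from genes chosen for their difference and are given as a description.

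Animals fed the same dose for 7 days, which had controls of their own, allow the 17 genes to be read again in other animals. At 7 days 12 genes passed with permethrin higher (0.0922% of those tested) and 0 with permethrin lower. Of the 17 genes of 14 days, 9 were among them, which is 52.9% of the 17 and 75% of the 12. They were Gsta2, Txnrd1, Srxn1, Ces1g, Nqo1, Aldh3a1, Gpx2, Ephx1 and Cbr3. The same sign with an unadjusted p under 0.05 was found at 7 days for 15 of the 17. Among all 13020 genes tested, 259 had an unadjusted p under 0.05 at 7 days, in either direction. Gsta2 had 534, 568, 582, 446 and 609 in the 7-day permethrin animals and 171, 161, 173, 135 and 151 in the 7-day controls, again without overlap (log2 1.79, adjusted p = 6.2e-06). Of the 16 higher genes Pth2 did not keep its sign, with 11.4, 17.1, 11.6, 22.3 and 13.3 in permethrin animals and 12.7, 15.5, 20.0, 16.3 and 18 in controls at 7 days (log2 -0.16). Gm19990 had a log2 fold change of -0.27 at 7 days (adjusted p = 1.0).

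The change of the effect with time was tested itself. In limma 0 genes had a larger or smaller effect at 14 days than at 7 days, with 371 at an unadjusted p under 0.05 and a smallest adjusted p of 1.0. Dubr, Maoa, Pdp2, Pth2 and Mctp1 had the smallest p-values. Mctp1 had 22.7, 16.1, 24.4, 11.9 and 18.1 with permethrin and 48.7, 50.6, 29.7, 27.4 and 29.8 in controls at 14 days, without overlap, and 38, 34.7, 24.9, 60.2 and 71.9 with permethrin and 19.5, 32.6, 33.4, 36.6 and 17.6 in controls at 7 days. Cardiac and fat markers had medians of -0.14 and -0.12 at 7 days, beside 0.93 and 0.69 at 14 days. Gclm, which did not pass at 14 days, had a log2 fold change of 0.81 at 7 days (adjusted p = 0.02), and Blvrb had 1.25 (adjusted p = 0.008). Gclc had 919, 1079, 1152, 1313 and 1649 with permethrin and 630, 600, 731, 525 and 419 in controls at 7 days, without overlap. Age and feeding time rise together between these groups.

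**Figure D4:**
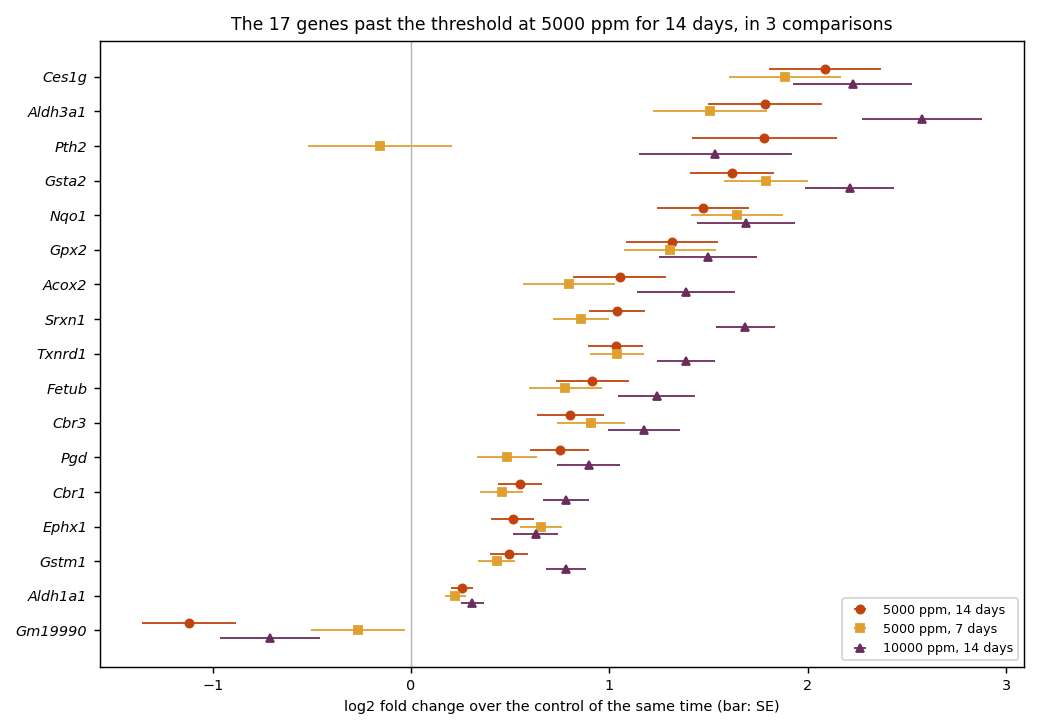
Log2 fold change over the control of the same time, with SE, for the 17 genes past the threshold at 5000 ppm for 14 days, shown for 5000 ppm at 14 days (circles), 5000 ppm at 7 days (squares) and 10000 ppm at 14 days (triangles, 4 animals). Circles and triangles share their controls. Squares lie near circles for most genes, and Pth2 is apart with -0.16 at 7 days against 1.78 at 14 days.

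The higher dose was examined by setting the 10000 ppm animals (n = 4) directly against the 5000 ppm animals (n = 5) at 14 days. In limma 0 genes differed past the threshold, with 493 at an unadjusted p under 0.05 and a smallest adjusted p of 0.849. Srxn1 had 292, 351, 172 and 275 at 10000 ppm and 164, 167, 159, 189 and 166 at 5000 ppm, a log2 difference of 0.64 (SE 0.15, unadjusted p = 0.00011). Aldh3a1 had 812, 1033, 356 and 544 at 10000 ppm and 427, 466, 269, 417 and 295 at 5000 ppm, a log2 difference of 0.79 (SE 0.30, unadjusted p = 0.0129). After Srxn1 the smallest p-values were those of Matn4 (log2 -0.67), Cyp2d13 (1.27), 4632415L05Rik (-1.61) and Wdr83 (0.74). Against the controls, which both doses share, log2 fold changes at 10000 and 5000 ppm were 2.21 and 1.62 for Gsta2, 1.38 and 1.03 for Txnrd1, and 2.23 and 2.09 for Ces1g. Of the 16 higher genes 15 had the larger value at 10000 ppm, and Pth2 had 1.53 at 10000 ppm and 1.78 at 5000 ppm. Cyp1a1 showed -2.06 at 10000 ppm and -0.57 at 5000 ppm. Its signals at 10000 ppm were dim, at 7.42, 15.2, 3.91 and 15.7, in part below the mean signal of 10.8 that the filter asks for.

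Promoter sequence was examined for the genes called. RefSeq windows (GRCm38.p6) of 300 bases, from 250 before to 50 after each start, were found for 16 of the 17. The core of the antioxidant response element, TGACNNNGC on either strand, lay in a window of 5 of the 16, which is 31.2%: Acox2, Fetub, Pgd, Srxn1 and Txnrd1. Of genes tested with a window, 16.8% held it, and 12.4% of all windows did. The AP-1 site TGANTCA, also on either strand, lay in 3 of 16 (18.8%), against 6.6% of genes tested and 7.81% of all windows. These are short motifs that occur often, and a match does not show a site in use. The stretches that follow give, 5′ to 3′ on the strand of the gene, the 250 bases before a start of Txnrd1 and of Acox2, each with its response element core in capitals (read on the opposite strand), and of Srxn1 with both of its AP-1 sites in capitals.
Txnrd1 chr10:82858956-82859205, plus strand: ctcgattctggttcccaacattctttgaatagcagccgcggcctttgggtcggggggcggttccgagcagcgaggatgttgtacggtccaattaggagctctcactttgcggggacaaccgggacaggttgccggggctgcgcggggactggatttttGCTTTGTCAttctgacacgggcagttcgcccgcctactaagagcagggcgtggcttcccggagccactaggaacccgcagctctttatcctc
Acox2 chr14:8259020-8259269, minus strand: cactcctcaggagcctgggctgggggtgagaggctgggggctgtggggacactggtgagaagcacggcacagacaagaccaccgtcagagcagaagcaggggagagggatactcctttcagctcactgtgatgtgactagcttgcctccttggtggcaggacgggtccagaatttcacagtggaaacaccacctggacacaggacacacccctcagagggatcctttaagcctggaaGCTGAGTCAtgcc
Srxn1 chr2:152105274-152105523, plus strand: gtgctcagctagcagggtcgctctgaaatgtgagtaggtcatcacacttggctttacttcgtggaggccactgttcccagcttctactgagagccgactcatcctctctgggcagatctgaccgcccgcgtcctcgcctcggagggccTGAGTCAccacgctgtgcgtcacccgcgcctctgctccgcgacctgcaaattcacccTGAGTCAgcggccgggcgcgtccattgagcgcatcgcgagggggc
Counted from the start base as 0, the core begins at -92 in Txnrd1, at -13 in Acox2 and at -110 in Fetub. In Pgd and Srxn1 the core begins after the start, at 3 and 28. The AP-1 sites of Srxn1 begin at -102 and -45. In Acox2 the 9 letters of the core also hold an AP-1 site. Gsta2, Nqo1, Ces1g and Gpx2 had windows without the core letters, which says only that these letters are not in those 300 bases.

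Across 24 alternative ways of processing, all 17 genes kept their sign. Gsta2, Txnrd1, Srxn1 and Ces1g passed under all 24, Nqo1 and Aldh3a1 under 22, Gpx2 under 21 and Gstm1 under 17. Cbr1 passed under 14, Pgd under 13, Ephx1 under 12, Cbr3 under 10, Aldh1a1 and Gm19990 under 9 and Acox2 under 7. Pth2 and Fetub could be tested under 23 and passed under 12 and 11. Over the 24 alternatives limma's adjusted p reached 0.97 for Gstm1, Cbr1, Ephx1 and Aldh1a1. With each of the 10 animals left out in turn, 7 genes kept their call throughout, namely Gsta2, Txnrd1, Srxn1, Ces1g, Nqo1, Aldh3a1 and Gpx2 (highest adjusted p 0.0402, for Gpx2). Gstm1 lost it without permethrin replicate 1 or control replicate 2 (log2 0.43 to 0.53, adjusted p up to 0.0902). Cbr1 lost it without permethrin replicate 1 or 4 or control replicate 2 or 5 (log2 0.51 to 0.59, up to 0.0902), and Pgd without permethrin replicate 1, 4 or 5 or control replicate 2 or 3 (0.69 to 0.87, up to 0.092). Pth2 lost it without permethrin replicate 4 or 5 or control replicate 3 or 4 (log2 1.37 to 2.15, up to 0.144), and Fetub without permethrin replicate 1, 4 or 5 or control replicate 2, 4 or 5 (0.77 to 1.11, up to 0.147). Ephx1 (log2 0.46 to 0.56, adjusted p up to 0.183), Aldh1a1 (0.22 to 0.29, up to 0.145) and Acox2 (0.87 to 1.21, up to 0.303) each lost it without any of 7 animals, and Cbr3 (0.75 to 0.92, up to 0.159) and Gm19990 (-1.32 to -1.04, up to 0.165) without any of 8.

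**Figure D5:**
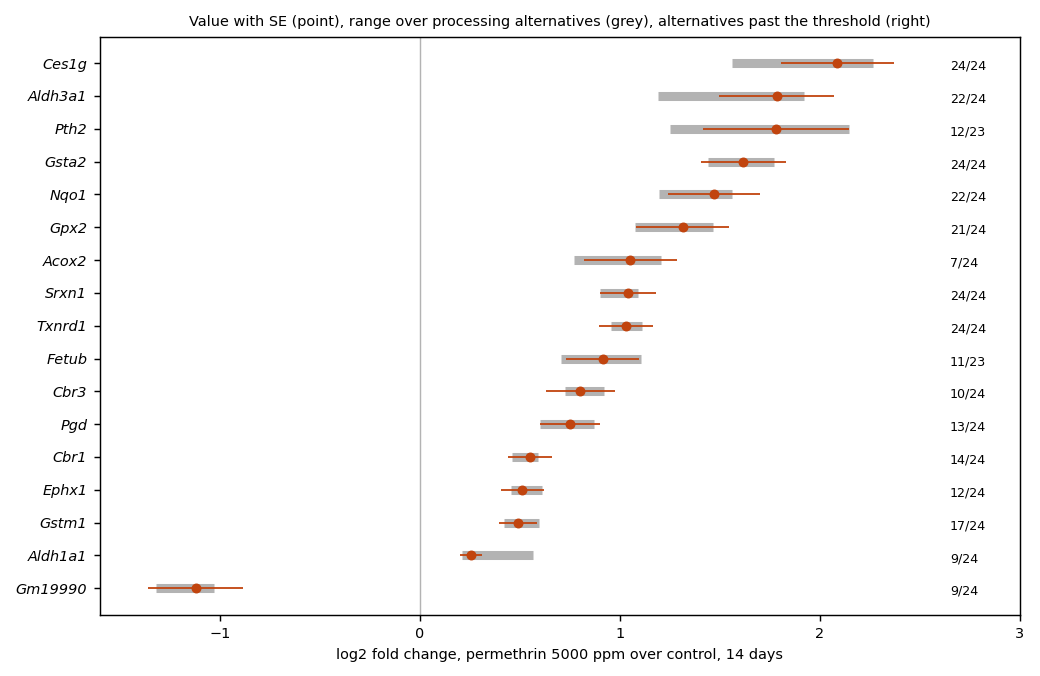
Log2 fold change (permethrin 5000 ppm over control, 14 days) of the 17 genes with SE, the range over processing alternatives in grey, and the number of alternatives under which the gene passed at the right. No range crosses 0. The upper rows include Ces1g and Gsta2, past the threshold in all 24.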

How the data were processed

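Lung RNA of 39 mice was measured on Affymetrix arrays, 1 array per animal, with labelling from the 3' end per the labels' protocols. The authors deposited linear signal intensity for 45101 probe sets. It came from MAS5, as the submitters' processing notes state (version not given in the sources used here), and was scaled by the authors to a trimmed mean of 100.0 per array. Detection calls were not used here. Array medians ran from 17.4 to 26.2, so log2 values were quantile normalized, without a pseudocount. A change common to most genes would be lost by this step, and the brightest probe sets meet a ceiling. Each gene was read from its probe set of highest mean. Genes were tested if that probe set was in the upper 60% of probe sets by mean signal (at least 3.43 in log2). These were 13020 of 18193 genes with a probe set of their own. Of the probe sets, 34945 carry 1 gene symbol, 932 several and 9160 none; genes without a probe set of their own were not analysed here.

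A model of 8 group means was fitted to all 39 arrays with limma 3.58.1 (trend) in R 4.3.3, with the data.table package (1.17.8), and adjusted by Benjamini-Hochberg at a threshold of 0.05. Log2 fold changes carry the model's SE. Per-animal scores were compared by exact two-sided permutation. The number of arrays per group limits the precision. The step was tested on simulated data with 200 genes changed. It recovered 35.8% of those changed by log2 0.5, 82.1% of those by 1 and 97% of those by 2. Of its calls 6.54% were false. An absent call thus does not show that a small change was absent.

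The 52 gene lists and the rule for named genes were chosen with earlier results of these data known. Named are all genes past the threshold, up to 4 members of each list with the smallest unadjusted p under 0.05, a set of always-given genes (NRF2 pathway, P450s, cell type and growth markers), and the genes of smallest p in the other comparisons. Outside the rule, and chosen with their values in view, are the 5 large-airway genes, Entpd5, Ikbkg, Akr1b8 and Ces2b. Deviations of same-numbered animals correlated between -0.09 and 0.27, over 0.1 for 2 of 5 pairs, so the numbers were not taken to pair animals. RNA integrity was nevertheless lower in replicates 4 and 5 of both groups. Alternatives were other scalings, a pseudocount of 4, other filters, every probe set, fewer arrays in the model, a replicate block, array weights, covariates and leaving out animals.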

Additional observations from a re-analysis of the deposited data

Results flagged for a closer look

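Among 230 groups of 5 values examined, 11 held a sample far from the other 4; chance alone marks about 1 in 20 such groups. In permethrin 5000 ppm animals at 14 days, replicate 3 was lowest for Cbr3 (signal 285, the others 404 to 448) and highest for Gm19990 (57.3, the others 26.7 to 32.0) and Mgst1 (4929, the others 4739 to 4768). Replicate 5 was lowest for Gsta4 (860.3, the others 963 to 994) and Aox1 (359, the others 459.9 to 479). Replicate 1 was lowest for Hk2 (107, the others 125 to 131) and for the dim pseudogene Cyp2d13 (2.44, the others 7.19 to 10.4). Replicate 4 was lowest for the mesothelial score (mean log2 signal 6.45, the others 6.86 to 6.98). Among controls at 14 days, replicate 2 was lowest for Abcc3 (127, the others 155 to 159.8) and highest for the alveolar type 2 score (10.56, the others 10.26 to 10.31), and replicate 4 was highest for the thymus and lymph node score (6.66, the others 5.64 to 5.91).

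For 5 of 93 genes compared between the times, every permethrin 5000 ppm animal lay on 1 side of its control mean at 14 days and on the other side at 7 days. Log2 fold changes at 14 and 7 days were 0.45 and -0.35 for Bche, 0.45 and -0.17 for Ccdc113, 1.06 and -0.83 for Dubr, 0.30 and -0.36 for Pdp2, and -0.62 and 0.12 for Wdr83. The test of the change with time passed for none of the 5 in limma. Dubr and Pdp2 were among the 93 because of their small p in that test. Bche and Ccdc113 were there because of a small unadjusted p at 14 days, and Wdr83 because of its small p between 10000 and 5000 ppm. All 5 were thus chosen with values of the 14-day permethrin animals. The share among all genes tested was not counted, so 5 of 93 is a description only. Dubr, a long non-coding RNA, had 101, 224, 222, 248 and 181 with permethrin and 86.9, 93.9, 110.2, 76.4 and 84.5 in controls at 14 days, and 100.1, 111, 90.3, 199 and 158 with permethrin and 335, 361, 88.4, 216 and 240.1 in controls at 7 days.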

How the results depend on the processing

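The count of 17 genes (16 higher, 1 lower) was 8, 10, 5 and 10 with arrays centred on their median, only the groups compared in the model, only the arrays of 14 days, and without the arrays of high Gapdh 3' to 5' ratio. It was 5 with cardiac and liver scores as covariates and 4 with cardiac, fat and large-airway scores (chosen after seeing the data); under all of these 6 the count lower was 0. With the Gapdh ratio as a covariate 2 were lower. Deposited scaling gave 13, and the share of calls that were higher was 94.1%, 92.3% and 100% under quantile, deposited and median scaling. With each animal left out the count ran from 8 to 16, higher 8 to 15 and lower 0 to 1. Replicate number as a block, which the labels do not tie to a litter or day, gave 15 genes, 0 of them lower; 2 of 5 animals correlated best with their own number. For 10000 against 5000 ppm the count of 0 became 1 (higher) with array weights or without the arrays of high Gapdh ratio, and 0 to 1 with animals left out (1 without 10000 ppm replicate 3). For the change with time it was 0 to 1 (1 without control 7 days replicate 3). The difference in alveolar type 2 score, 0.02, was 0.14 under deposited and under median scaling, and that in alveolar type 1 score, -0.02, was 0.0689 and 0.0723. The cause of these shifts was not tested. No value that was past the threshold changed sign. Dim probe sets, such as those of Pth2, limit what can be read.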

Other observations

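Slc2a1, the main glucose transporter of the plasma membrane, had 339, 342, 273, 374 and 396 with permethrin and 229, 222, 240.0, 272 and 267 in controls. The groups touched but did not overlap (log2 0.48, SE 0.12, adjusted p = 0.2). Of 20 hypoxia and glycolysis genes tested 0 passed in limma, 2 had an unadjusted p under 0.05, and the median was 0.04. Ceruloplasmin, a copper protein of plasma and airway (Cp), had 1635, 2185, 1718, 1862 and 2231 with permethrin and 1362, 1113, 1052, 1222 and 1118 in controls. Every treated animal lay above every control, but Cp did not pass (log2 0.71, SE 0.25, adjusted p = 0.788). Scgb3a2, a secretoglobin of club cells, had 6806, 7078, 6970.2, 6912 and 6806 with permethrin and 6534, 5799, 5973, 6534 and 6016 in controls (log2 0.17, SE 0.05, adjusted p = 0.356). The T and NK cell markers had 17 of 18 positive values (median 0.22, median 0.21 at 7 days), with 0 past the threshold in limma and 0 at an unadjusted p under 0.05. Their median at 14 days ran from 0.05 without permethrin replicate 2 to 0.33 without permethrin replicate 3.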
